A study of Mus musculus with 32 samples.

Results

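The genes described here are 10 established targets of the transcription factor p53: Cdkn1a, Mdm2, Perp, Pmaip1, Phlda3, Btg2, Ddit4l, Ccng1, Bbc3 and Trp53inp1. They were chosen by name, and every probe annotated to 1 of these symbols alone was kept. This gave 19 of 45037 probe sets on Affymetrix arrays, which cover 18193 named genes, and 10 of 21106 probes, 1 for each gene, on custom 2-colour arrays, which cover 14461 named genes. All 19 and all 10 entered the tests, with no filter on low values.

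All samples were E14 mouse embryonic stem (ES) cells. The Affymetrix arrays came from cells transfected with the pSUPER-puro plasmid, empty (vector, 5 arrays) or carrying a hairpin against Nanog (5 arrays) or against Pou5f1, the gene of Oct4 (4 arrays). All 3 groups were selected as pools in 1 µg/ml puromycin for 3 days, starting 24 h after transfection. The control was the empty plasmid, with no non-targeting hairpin, so an effect of any hairpin and an effect of losing the target cannot be told apart. The 2-colour arrays compared cells treated with 0.1 µM retinoic acid (RA), 1% dimethyl sulfoxide (DMSO) or 3 mM hexamethylene bisacetamide (HMBA) for 2, 4 or 6 days with untreated cells, with 2 arrays of opposite dye for each treatment and day. Replicates are not described in the labels as separate cultures, so p-values measure the spread between arrays, which may be technical.

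p53 is held at a low level by Mdm2, a ubiquitin ligase that marks it for degradation and is itself a p53 target. When p53 is stabilised, it binds response elements near its targets and raises genes that stop the cell cycle, promote apoptosis, restrain growth signalling and feed back on p53 itself. ES cells hold abundant p53 and are known to use it during differentiation and after DNA damage.

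A p53 response element is built from copies of a decamer, and RefSeq promoter windows (GRCm38.p6, 250 bases before to 50 after a transcript's start) were searched for that decamer, known as the p53 half-site, which reads as the same motif on both strands. Windows were found for 7 of the 10 genes, and Perp, Pmaip1 and Trp53inp1 had none in the table. The decamer occurred in 4 of the 10 windows of these genes and in 8.36% of all 32851 windows. The stretches below hold these matches, and no measurement was related to them. They run 5′ to 3′ on the gene's strand, and capitals mark the decamer.
Cdkn1a: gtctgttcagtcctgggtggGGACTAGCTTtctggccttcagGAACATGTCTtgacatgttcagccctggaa
Ccng1: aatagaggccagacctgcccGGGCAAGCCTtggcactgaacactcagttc
Mdm2: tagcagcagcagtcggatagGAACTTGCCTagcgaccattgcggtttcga
Ddit4l: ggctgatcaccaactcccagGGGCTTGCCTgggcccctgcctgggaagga
The Cdkn1a stretch lies at chr17:29090886-29090957 on the plus strand, with decamers that begin 73 and 51 bases before the start of a transcript. It was the only member window with 2 decamers at most 13 bases apart, an arrangement found in 0.073% of all windows. The Ccng1 stretch lies at chr11:40755442-40755491 on the minus strand, with its decamer 185 bases before the start. Mdm2 held its match at chr10:117710915-117710964 on the minus strand, 186 bases before the start, and Ddit4l at chr3:137623562-137623611 on the plus strand, 90 bases before it. In a search added after these stretches had been read, a decamer directly beside 10 further bases that match it with at most 1 mismatch was found in the Cdkn1a and Ccng1 windows and in 0.088% of all windows. These genes were chosen as known p53 targets and some have more than 1 window, so the shares are not a test. A match is a description of the letters only. The other Cdkn1a window, at chr17:29093519-29093818, held no match, so the Cdkn1a decamers belong to only 1 of its annotated starts. The windows of Btg2, Phlda3 and Bbc3 held no match within these bounds.

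The target of each hairpin was lower in its own group. Pou5f1 averaged 11.42 ± 0.09 (log2 level, SD) in vector, 9.03 ± 0.22 after Pou5f1 RNAi and 11.32 ± 0.16 after Nanog RNAi. Nanog averaged 11.09 ± 0.08 in vector, 9.29 ± 0.15 after Nanog RNAi and 9.70 ± 0.11 after Pou5f1 RNAi. Arrays of a group correlated at 0.990 to 0.997. All 10 ES cell markers were lower after Pou5f1 RNAi and 6 of 10 after Nanog RNAi, while 12 of 12 trophoblast markers were higher in both. Of all genes 20.6% rose and 19.5% fell after Pou5f1 RNAi, and 12.1% and 8.77% after Nanog RNAi. Markers of other lineages went both ways: of 11 primitive endoderm markers 3 rose and 5 fell after Pou5f1 RNAi and 5 rose and 0 fell after Nanog RNAi, with 3 and 3, then 2 and 1, of 11 fibroblast markers and 2 and 4, then 1 and 4, of 8 neural markers. The log2 of the summed trophoblast markers ranged from 9.74 to 9.96 in vector, 11.27 to 11.69 after Nanog RNAi and 14.97 to 15.11 after Pou5f1 RNAi. In the same order, primitive endoderm sums ranged from 11.04 to 11.23, 11.27 to 11.52 and 11.93 to 12.07. Fibroblast sums ranged from 11.48 to 11.63, 11.77 to 11.85 and 12.12 to 12.30. Neural sums ranged from 11.04 to 11.27, 10.73 to 10.97 and 9.05 to 9.19. A sum follows its most abundant genes. The part of these shifts in the results on the p53 targets was not tested. In such bulk samples, a change in the share of a cell type and a change in RNA per cell cannot be told apart.

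After Nanog RNAi, 9 of the 10 genes rose and 0 fell by the main probe set (the one of highest mean), against 12.1% of all genes that rose and 8.77% that fell. A call here is an adjusted p under 0.05 in limma, over all 45037 probe sets. Over the 19 probe sets 15 rose and 0 fell, against 8.8% and 6.78% of all probe sets, and on all 15 every Nanog RNAi array lay above every vector array, which held for 6.58% of all probe sets. The median change of the 10 genes was 0.82 on the log2 scale, against -0.02 for all genes.

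After Pou5f1 RNAi, 8 of the 10 genes rose and 1, Ddit4l, fell, against 20.6% of all genes that rose and 19.5% that fell. Over the probe sets 13 rose and 2 fell of 19, where 16% and 15.6% of all probe sets did. The median of the 10 genes was 0.78, against -0.04 for all genes. Of all genes 6.78% rose in both knockdowns, and of these 10 genes 8 did: Perp, Mdm2, Phlda3, Btg2, Cdkn1a, Ccng1, Pmaip1 and Trp53inp1. The comparisons share the vector arrays, so each one's values are given side by side.

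**Figure D1:**
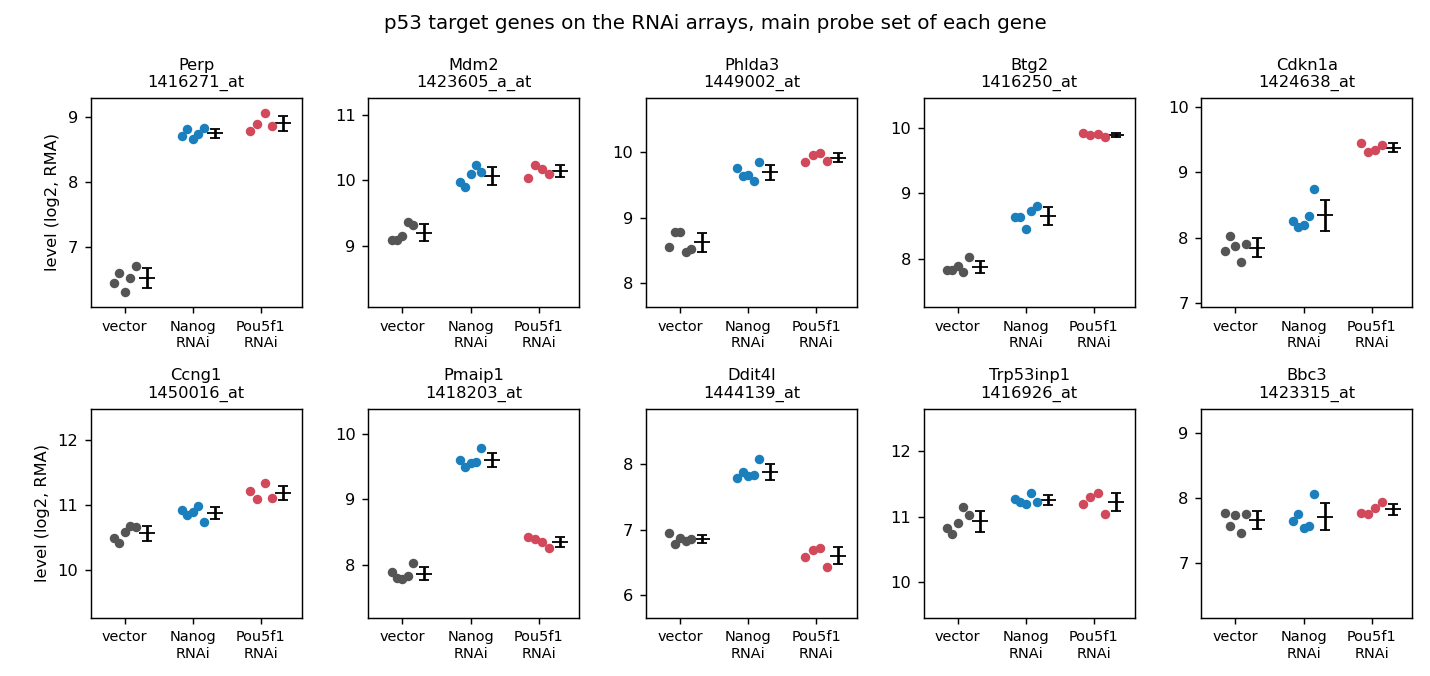
Log2 level (RMA) of the main probe set of each gene on every RNAi array, with 5 vector, 5 Nanog RNAi and 4 Pou5f1 RNAi arrays; points are arrays, bars the mean ± SD, and every panel spans the same height in log2 units. Perp, Mdm2, Phlda3, Btg2, Cdkn1a, Ccng1 and Pmaip1 lay above vector on every knockdown array, Ddit4l was high after Nanog RNAi and low after Pou5f1 RNAi, and the 3 groups overlapped for Bbc3. Of all probe sets 6.58% lay above vector on every Nanog RNAi array, and the share for both knockdowns together is not given here.

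Perp, a tetraspan membrane protein of desmosomes that also promotes apoptosis, changed most of the 10 genes in both knockdowns. Its levels on the vector arrays were 6.46, 6.61, 6.31, 6.53 and 6.72. They were 8.70, 8.81, 8.65, 8.73 and 8.82 after Nanog RNAi and 8.78, 8.88, 9.06 and 8.86 after Pou5f1 RNAi. The lowest knockdown array thus stood almost 2 log2 units above the highest vector array. Perp rose by 2.22 ± 0.08 (SE; 4.65-fold, adjusted p = 2e-13) after Nanog RNAi and by 2.37 ± 0.09 (5.17-fold, adjusted p = 1.3e-14) after Pou5f1 RNAi. The knockdowns differed from each other by 0.15 ± 0.09, which was not called (adjusted p = 0.23).

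The genes that feed back on p53 moved in both knockdowns. Mdm2 read 9.09, 9.08, 9.14, 9.36 and 9.32 on the vector arrays by its main probe set. After Nanog RNAi it read 9.97, 9.90, 10.10, 10.23 and 10.13, and after Pou5f1 RNAi 10.04, 10.24, 10.18 and 10.10. Vector and knockdown arrays did not overlap, while the knockdowns overlapped with each other. The rise was 0.87 ± 0.08 (adjusted p = 1.6e-07) and 0.94 ± 0.09 (adjusted p = 2e-08), and the difference between knockdowns was 0.07 ± 0.09 (adjusted p = 0.63). A second probe set gave 0.82 ± 0.10 and 0.99 ± 0.11. The remaining Mdm2 probe set, at a mean of 3.37 in vector, near the bottom of the arrays' range, was not called in either, at -0.02 ± 0.08 and -0.05 ± 0.08.

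Ccng1, cyclin G1, which binds Mdm2 and a phosphatase that acts on it, rose on all 3 of its probe sets in both knockdowns. The main one read 10.49, 10.42, 10.58, 10.68 and 10.66 in vector, then 10.92, 10.85, 10.90, 10.99 and 10.74 after Nanog RNAi and 11.22, 11.09, 11.33 and 11.10 after Pou5f1 RNAi. These are the least separated of its probe sets, yet each group lay above the one before. Changes over the 3 probe sets ran from 0.31 to 0.63 after Nanog RNAi and from 0.62 to 1.19 after Pou5f1 RNAi. All 3 were higher after Pou5f1 RNAi than after Nanog RNAi, by 0.31 ± 0.08, 0.56 ± 0.07 and 0.72 ± 0.09.

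Among the genes that slow the cell cycle, Cdkn1a and Btg2 rose in both knockdowns and further after Pou5f1 RNAi. Cdkn1a encodes p21, which inhibits cyclin-dependent kinases and is the best known p53 target in cell cycle arrest. Its main probe set read 7.79, 8.02, 7.88, 7.63 and 7.90 in vector. After Nanog RNAi it read 8.25, 8.17, 8.20, 8.34 and 8.75, and after Pou5f1 RNAi 9.45, 9.31, 9.34 and 9.42. No array of a group reached into the next. The rise was 0.50 ± 0.10 (1.41-fold, adjusted p = 0.0013) after Nanog RNAi and 1.54 ± 0.11 (2.90-fold, adjusted p = 2.4e-10) after Pou5f1 RNAi, a difference of 1.04 ± 0.11 (adjusted p = 1e-07).

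The other Cdkn1a probe set varied widely within vector, from 6.06 to 7.29, with a mean of 6.78 ± 0.56 (SD). It averaged 7.34 ± 0.41 after Nanog RNAi, where replicates 4 and 5 were lowest at 6.74 and 7.09, and 7.83 ± 0.11 after Pou5f1 RNAi. The vector arrays 4 and 5 were also the lowest of their group, at 6.31 and 6.06. The change of 0.56 ± 0.21 after Nanog RNAi was not called (adjusted p = 0.082), though it was with a trended prior (adjusted p = 0.045) and without vector replicate 3 (0.68, adjusted p = 0.035) or Nanog RNAi replicate 4 (0.71, adjusted p = 0.021), and that of 1.04 ± 0.22 after Pou5f1 RNAi was (adjusted p = 0.00078).

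Btg2, an antiproliferative protein that recruits the deadenylase complex to messenger RNA, gave the widest gap among the genes that were higher after Pou5f1 RNAi than after Nanog RNAi. Its main probe set read 7.83, 7.82, 7.89, 7.79 and 8.03 in vector, 8.64, 8.64, 8.45, 8.73 and 8.80 after Nanog RNAi, and 9.93, 9.89, 9.91 and 9.86 after Pou5f1 RNAi. The steps from group to group exceeded the spread within any of them. It rose by 0.78 ± 0.07 (adjusted p = 2.1e-07) and by 2.02 ± 0.08 (4.07-fold, adjusted p = 3.6e-14), and the second probe set by 0.60 ± 0.09 and 1.82 ± 0.09. Between the knockdowns the difference was 1.24 ± 0.08 and 1.22 ± 0.09 on the same probe sets (adjusted p = 8.6e-11 and 9.6e-10).

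Genes that restrain growth signalling fell into different patterns. Phlda3, a small pleckstrin-homology protein that competes with Akt for membrane lipids, read 8.56, 8.79, 8.78, 8.48 and 8.53 in vector. After Nanog RNAi it read 9.77, 9.64, 9.65, 9.57 and 9.86, and after Pou5f1 RNAi 9.85, 9.96, 9.99 and 9.87. All knockdown arrays lay above all vector arrays. The rise was 1.07 ± 0.08 (adjusted p = 5.8e-09) and 1.29 ± 0.09 (adjusted p = 1.3e-10), with a difference of 0.22 ± 0.09 that was not called (adjusted p = 0.061).

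Ddit4l, also called Redd2, an inhibitor of the growth kinase mTORC1, separated the knockdowns by more than any other of the 10 genes. Its main probe set read 6.95, 6.78, 6.87, 6.83 and 6.85 in vector, 7.79, 7.88, 7.82, 7.83 and 8.08 after Nanog RNAi, and 6.58, 6.68, 6.71 and 6.42 after Pou5f1 RNAi. Nanog RNAi arrays lay above vector and Pou5f1 RNAi arrays below it. After Nanog RNAi all 3 probe sets rose, by 1.03 ± 0.08, 1.70 ± 0.09 (3.26-fold) and 0.78 ± 0.11. After Pou5f1 RNAi the first and the last of these fell, by 0.26 ± 0.08 (adjusted p = 0.018) and 0.53 ± 0.12 (adjusted p = 0.00098). The last was a low probe set, at a mean of 5.28 in vector and 4.75 after Pou5f1 RNAi. The median of all probe sets was 4.63 on Pou5f1 RNAi replicate 1. The probe set with the strongest rise after Nanog RNAi was not called after Pou5f1 RNAi, at 0.20 ± 0.10 (adjusted p = 0.12), so the probe sets had opposite signs there. Without Pou5f1 RNAi replicate 4 the main probe set was no longer called (-0.20, adjusted p = 0.093). Set against Nanog RNAi, all 3 were lower with Pou5f1 RNAi, with differences of -1.28 ± 0.08, -1.50 ± 0.10 and -1.31 ± 0.12 (adjusted p = 7.8e-11, 8.3e-11 and 1.2e-08).

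The apoptotic genes split. Pmaip1, which encodes Noxa, a BH3-only protein that neutralises Mcl1, read 7.89, 7.80, 7.79, 7.83 and 8.02 in vector. It read 9.61, 9.50, 9.56, 9.58 and 9.79 after Nanog RNAi and 8.43, 8.39, 8.35 and 8.25 after Pou5f1 RNAi. Every Pou5f1 RNAi array was above vector and more than 1 log2 unit below every Nanog RNAi array. Pmaip1 rose by 1.74 ± 0.07 (3.34-fold, adjusted p = 1e-12) after Nanog RNAi and by 0.49 ± 0.08 (adjusted p = 3.7e-05) after Pou5f1 RNAi, a difference of -1.25 ± 0.08 (adjusted p = 5.7e-11).

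Bbc3, which encodes the BH3-only protein Puma, was the gene of the 10 called in neither knockdown. Its levels were 7.78, 7.57, 7.74, 7.47 and 7.76 in vector, 7.65, 7.75, 7.55, 7.57 and 8.07 after Nanog RNAi, and 7.77, 7.75, 7.85 and 7.94 after Pou5f1 RNAi. The groups overlapped. Its changes were 0.06 ± 0.09 (adjusted p = 0.79) and 0.17 ± 0.10 (adjusted p = 0.25).

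Trp53inp1, a nuclear protein that assists p53 and takes part in autophagy, rose by 0.33 ± 0.08 after Nanog RNAi and 0.29 ± 0.09 after Pou5f1 RNAi on its main probe set (adjusted p = 0.0098 and 0.015). Vector arrays read 10.83, 10.74, 10.91, 11.15 and 11.02, Nanog RNAi arrays 11.27, 11.23, 11.19, 11.37 and 11.22, and Pou5f1 RNAi arrays 11.20, 11.30, 11.36 and 11.04. The Pou5f1 RNAi arrays overlapped with vector, and the call was lost without replicate 2 (0.27, adjusted p = 0.052) or replicate 3 (0.25, adjusted p = 0.065) of that group. The second probe set was called in neither, at 0.10 ± 0.13 and 0.11 ± 0.14.

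**Figure D2:**
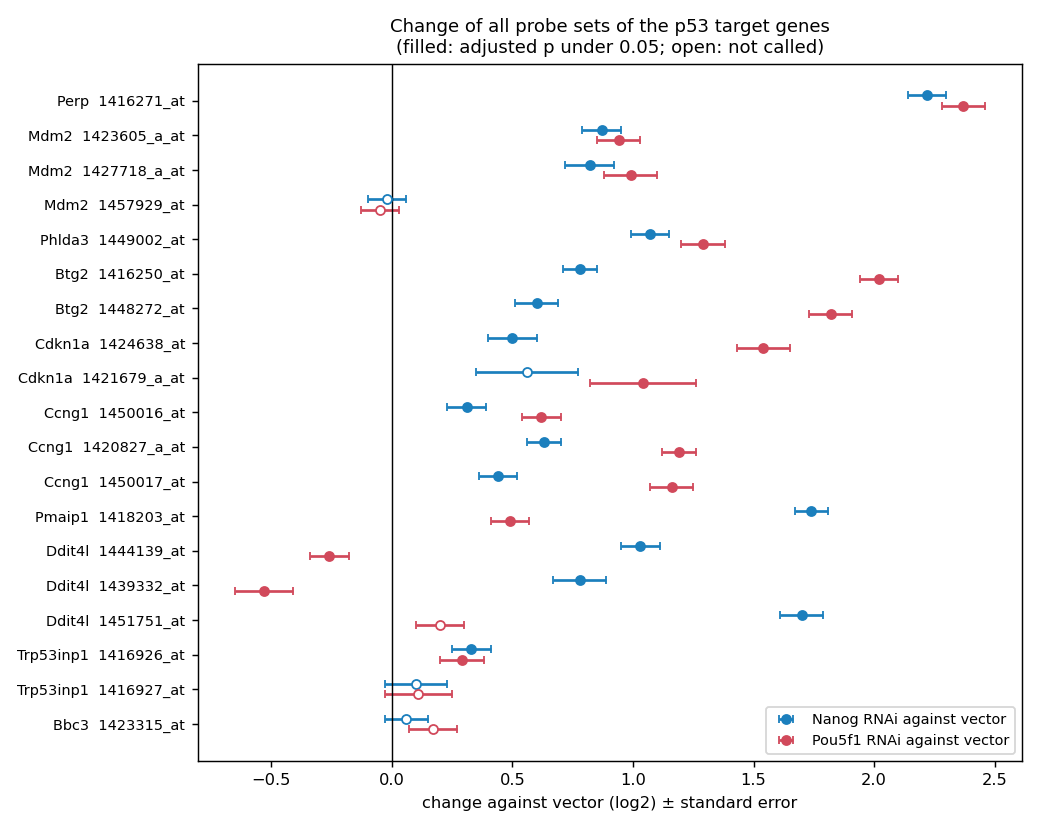
Change against vector (log2) with its standard error for all 19 probe sets, after Nanog RNAi (blue) and Pou5f1 RNAi (red); filled points were called at an adjusted p under 0.05. Perp stands far from 0 in both, Btg2, Cdkn1a and Ccng1 are further right after Pou5f1 RNAi, and Pmaip1 and Ddit4l are further right after Nanog RNAi.

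Compared directly, Pou5f1 RNAi gave 6 probe sets higher and 4 lower than Nanog RNAi among the 19, against 15% and 14.5% of all probe sets. Those higher belonged to Btg2, Cdkn1a and Ccng1, and those lower to Ddit4l and Pmaip1. Perp, Mdm2, Phlda3, Bbc3 and Trp53inp1 were not called.

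Other genes of the pathway were read by their main probe sets. Of 46 further p53 targets measured, 26 rose and 2 fell after Nanog RNAi (median 0.30), and 18 rose and 15 fell after Pou5f1 RNAi (median 0.10). Of all genes 12.1% rose and 8.77% fell after Nanog RNAi, and 20.6% and 19.5% after Pou5f1 RNAi. After Nanog RNAi, Thbs1, a secreted matrix protein that inhibits vessel growth, rose by 1.94 ± 0.10, the kinase gene Plk3 by 1.37 ± 0.08, Igfbp3, which binds insulin-like growth factors, by 1.42 ± 0.09, and Sfn, the 14-3-3 sigma protein, by 1.31 ± 0.11. After Pou5f1 RNAi, Thbs1 rose by 2.49 ± 0.11, the immediate early gene Ier5 by 2.21 ± 0.10 and Sfn by 1.83 ± 0.11, while the ephrin receptor gene Epha2 fell by 1.63 ± 0.08.

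Of 26 genes measured from a list of p53, its relatives and its regulators, 5 rose and 11 fell after Pou5f1 RNAi (median -0.10). Of all genes 20.6% rose and 19.5% fell there. The SUMO ligase gene Pias1 rose by 1.52 ± 0.08 and the ubiquitin ligase gene Rffl by 2.35 ± 0.16, while the checkpoint kinase genes Chek2 and Chek1 fell by 1.29 ± 0.08 and 1.06 ± 0.07. After Nanog RNAi 4 rose and 2 fell, against 12.1% and 8.77% of all genes. The acetyltransferase gene Crebbp (0.55 ± 0.08), Pias1 (0.48 ± 0.08) and Topors (0.37 ± 0.07), a ubiquitin and SUMO ligase, were higher there, and the checkpoint kinase gene Atr was lower (-0.49 ± 0.08).

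Of 29 cell cycle genes that p53 is known to lower through p21, 15 fell and 3 rose after Pou5f1 RNAi (median -0.24). Of all genes 19.5% fell and 20.6% rose there. The replication licensing gene Mcm2 fell by 0.85 ± 0.07, the transcription factor gene Mybl2 by 0.92 ± 0.07 and the spindle checkpoint kinase genes Bub1 and Ttk by 0.94 ± 0.08 and 0.70 ± 0.07. After Nanog RNAi 5 fell and 1 rose (median 0.01), where 8.77% and 12.1% of all genes did. Mybl2 (-0.34 ± 0.07), the mitotic cyclin gene Ccnb2 (-0.35 ± 0.07) and the centriole kinase gene Plk4 (-0.30 ± 0.07) were lower, and Cdc20, an activator of the anaphase-promoting complex, was higher (0.33 ± 0.09).

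Of 16 other Cdk inhibitors, G1 cyclins and their partners, 7 rose and 7 fell after Pou5f1 RNAi, and 5 rose and 3 fell after Nanog RNAi. Over all genes these shares were 20.6% and 19.5%, then 12.1% and 8.77%. Cdkn1c, which encodes the p21 relative p57, rose by 4.04 ± 0.09 and 1.35 ± 0.09 in these comparisons, and the cyclin D1 gene Ccnd1 fell by 2.21 ± 0.10 and 0.89 ± 0.09. Cdkn1b, the third gene of that inhibitor family, was higher after Pou5f1 RNAi (0.51 ± 0.11) and lower after Nanog RNAi (-0.71 ± 0.11). The 3 family members thus shared a direction after Pou5f1 RNAi and not after Nanog RNAi.

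Of 16 further Bcl2 family genes, 5 rose and 4 fell after Pou5f1 RNAi, where 20.6% and 19.5% of all genes did. After Nanog RNAi 3 rose and 3 fell, where 12.1% and 8.77% of all genes did. In the order Pou5f1 RNAi, then Nanog RNAi, the values of single genes follow. The survival gene Bcl2l1 rose by 1.04 ± 0.08 and 0.44 ± 0.08, and the BH3-only gene Bcl2l11 by 0.65 ± 0.09 and 0.30 ± 0.08. Mcl1, whose protein Noxa binds, fell by 0.49 ± 0.07 after Pou5f1 RNAi and was not called after Nanog RNAi (-0.06 ± 0.07). Bnip3 fell by 1.75 ± 0.07 and the BH3-only gene Bmf by 1.02 ± 0.10 after Nanog RNAi.

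Among 18 paralogues of these genes, 8 rose, 3 fell and 7 were not called after Pou5f1 RNAi, and 6 rose, 4 fell and 8 were not called after Nanog RNAi. Over all genes 20.6% rose and 19.5% fell, then 12.1% and 8.77%, which also holds for the desmosome genes below. Pmp22, of the same tetraspan family as Perp, rose by 5.54 ± 0.09 and 0.46 ± 0.08, and Phlda1, related to Phlda3, by 2.05 ± 0.13 and 1.57 ± 0.12. Ccng2, the relative of Ccng1, was lower after Nanog RNAi (-1.16 ± 0.16) and not called after Pou5f1 RNAi (-0.33 ± 0.17). Among 9 desmosome genes, the structure that holds Perp, 6 rose and 1 fell after Pou5f1 RNAi, led by Dsp (4.20 ± 0.15), and after Nanog RNAi Dsp rose (1.12 ± 0.14) and Pkp2 fell (-0.64 ± 0.10).

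Lists for other stress programmes gave mixed directions, where 20.6% of all genes rose and 19.5% fell after Pou5f1 RNAi, and 12.1% and 8.77% after Nanog RNAi. The integrated stress response had 7 of 15 higher and 4 lower after Pou5f1 RNAi and 5 higher and 4 lower after Nanog RNAi, and 19 immediate early genes gave 9 and 5, then 6 and 3. Of 16 interferon response genes, 4 rose and 4 fell after Pou5f1 RNAi, and 0 rose and 2 fell after Nanog RNAi. Their summed level ranged from 11.45 to 11.56 (log2) in vector, 11.11 to 11.27 after Nanog RNAi and 9.99 to 10.06 after Pou5f1 RNAi. This sum follows the most abundant of these genes, while single genes went both ways after Pou5f1 RNAi. Whether the hairpins caused an interferon response was not tested.

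**Figure D3:**
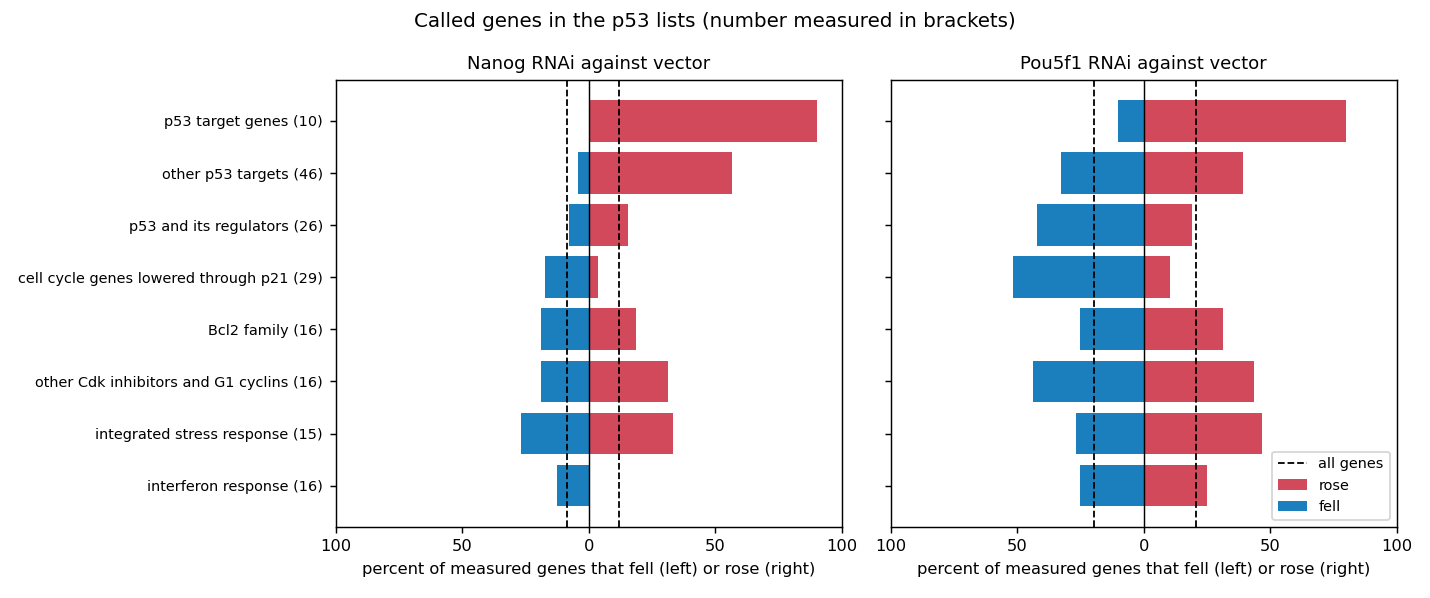
Percent of measured genes called lower (bars to the left) or higher (to the right) in lists of the p53 pathway and of stress programmes, with the number measured in brackets, after Nanog RNAi (left) and Pou5f1 RNAi (right); dashed lines mark the percent over all genes. Of the other p53 targets 26 of 46 rose after Nanog RNAi, and of the genes lowered through p21 15 of 29 fell after Pou5f1 RNAi.

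As a description over the 14 RNAi arrays, which share group differences, some genes followed the p53 targets closely. Perp went with Id3 (Pearson r = 0.992), Csrnp1 (0.992) and S100a6 (0.990), and Btg2 with Krt18 (0.997), Igf2 (0.996) and Rbms1 (0.995). Cdkn1a went with Dynll2, Gucd1 and Plec (0.990, 0.989 and 0.989), Ddit4l with Ccser1, Lrpap1 and Mep1b (0.990, 0.989 and 0.988), and Pmaip1 with AF067061, Spesp1 and Abcb1b (0.993, 0.992 and 0.991). Csrnp1 was also among the closest genes to Mdm2 (0.981), beside Slc30a2 and Gm7969 (0.983 and 0.982). Phlda3 was nearest to its paralogue Phlda1 (0.986), then Mlec and Phc2 (0.984 and 0.978). For Ccng1 the closest were Vwa5a, Zwint and Tm9sf3 (0.968, 0.967 and 0.962), for Trp53inp1 Fkbp1a, Hnrnph1 and Selenoi (0.953, 0.951 and 0.927), and for Bbc3 Trim8, 1110059G10Rik and Zfp598 (0.929, 0.909 and 0.884).

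The 2-colour arrays asked the same of cells that differentiate under a chemical. Their values are log ratios of treated over untreated cells, taken as log2 because the base was not given, and all ratios share the untreated reference. Arrays are named by the dye of the treated sample. Dye mattered for several of these genes: Btg2, Perp and Pmaip1 were lower on the Cy5 array in 9 of 9 pairs, by a median of 0.71, 0.73 and 0.66. The fit with dye orientation as a term is therefore given beside each gene where it changes a call. Markers shifted here too: 9 of 10 ES cell markers fell with RA, 8 with DMSO and 9 with HMBA, and of 11 trophoblast markers 8 rose with RA, 2 rose and 2 fell with DMSO, and 7 rose with HMBA. Of all genes 17% rose and 10.6% fell with RA, 10.7% and 8.61% with DMSO, and 15.5% and 12.8% with HMBA. Other lineages moved too on day 4 of RA. The fibroblast markers Acta2 and Col1a2 rose by 4.64 ± 0.16 and 3.95 ± 0.17 there. The primitive endoderm marker Col4a1 rose by 3.45 ± 0.16 and the neural marker Gap43 by 2.54 ± 0.22. From these last lists Foxa2 and Stmn2 were lower (-0.62 ± 0.15 and -1.11 ± 0.17), and several genes of all 3 lists were not called. The part of these markers in the results was not tested.

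Averaged over the 3 days, 5 of the 10 genes rose with RA and 0 fell, against 14.7% of all probes that rose and 10.5% that fell. With the dye term 6 rose and 2 fell, where 26.1% and 23.3% of all probes did. DMSO gave 0 higher and 1 lower (9.41% and 7.63% of all probes), and with the dye term 1 and 3 (22.8% and 18.4%). HMBA gave 1 higher and 2 lower (13.5% and 11.4%), and with the dye term 3 and 3 (24.2% and 23.8%). The median ratio of the 10 genes was 0.37 with RA, -0.13 with DMSO and -0.10 with HMBA.

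**Figure D4:**
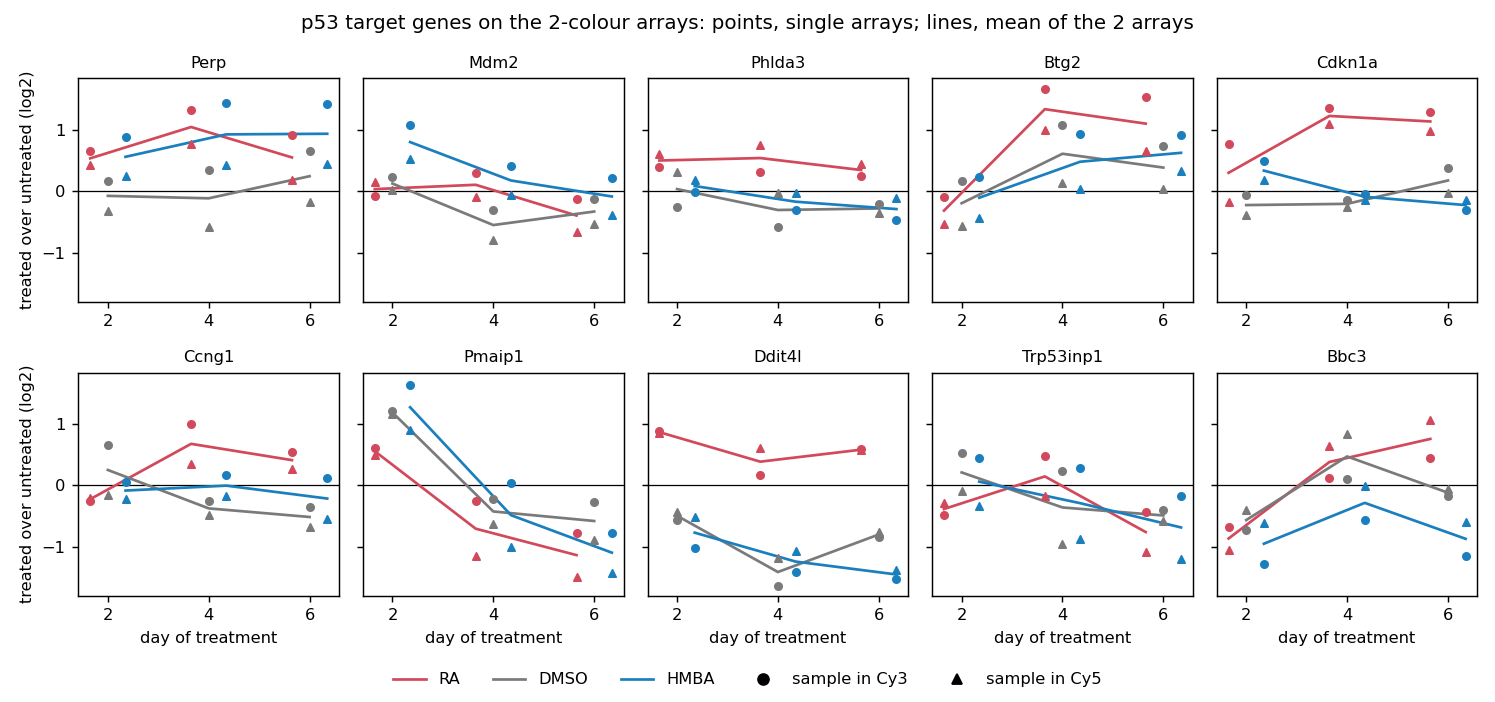
Log2 ratio of treated over untreated cells for the 10 genes by day of RA (red), DMSO (grey) or HMBA (blue); circles are arrays with the treated sample in Cy3, triangles in Cy5, and lines join the mean of both. Cdkn1a and Btg2 are high with RA on days 4 and 6, Ddit4l is above 0 with RA and below 0 with DMSO and HMBA on every array, and Pmaip1 goes from above 0 on day 2 to below 0 on day 6 in all 3 treatments.

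Cdkn1a rose with RA by 0.88 ± 0.12 (adjusted p = 0.00014). Its ratios were 0.77 (Cy3) and -0.17 (Cy5) on day 2, 1.36 and 1.09 on day 4, and 1.29 and 0.98 on day 6. The rise was called on day 4 (1.22 ± 0.21, adjusted p = 0.0024) and day 6 (1.13 ± 0.21, adjusted p = 0.0028) and not on day 2 (0.30 ± 0.21, adjusted p = 0.60). Without the Cy3 array of the same day the calls on days 4 and 6 were lost (1.09, adjusted p = 0.078, and 0.98, adjusted p = 0.084). Day 6 exceeded day 2 by 0.83, called with the dye term only (adjusted p = 0.014). With DMSO the means were -0.23, -0.20 and 0.18 over the days and with HMBA 0.34, -0.09 and -0.22, none of them called with or without the dye term. RA exceeded DMSO by 0.97 ± 0.17 (adjusted p = 0.0040) and HMBA by 0.88 ± 0.17 (adjusted p = 0.011). When swapped arrays were averaged first and days taken as replicates, neither difference was called (adjusted p = 0.067 and 0.14).

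Btg2 took the same course with RA. It read -0.10 and -0.53 on day 2, 1.67 and 1.00 on day 4, and 1.54 and 0.66 on day 6, so the arrays of the later days all lay above those of day 2. The mean over days was 0.71 ± 0.19 (adjusted p = 0.017), and the call was lost without any 1 of the Cy3 arrays of RA (highest adjusted p = 0.093). Day 6 exceeded day 2 by 1.41 ± 0.47, which was called with the dye term only (adjusted p = 2.7e-05, against 0.27). DMSO and HMBA gave means of 0.27 and 0.33, called higher with the dye term only (adjusted p = 0.0046 and 0.00056). So were their means on day 4 (0.61 and 0.48, adjusted p = 0.00092 and 0.0042) and day 6 (0.39 and 0.62, adjusted p = 0.019 and 0.00048), and their differences of day 6 from day 2 (0.59 and 0.73, adjusted p = 0.034 and 0.0089). RA exceeded them with the dye term by 0.44 ± 0.10 and 0.37 ± 0.10 (adjusted p = 0.0028 and 0.013), and not without it (0.54 and 0.75).

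Perp rose with RA by 0.71 ± 0.20 (adjusted p = 0.018) and with HMBA by 0.81 ± 0.20 (adjusted p = 0.0087), but not with DMSO (0.02 ± 0.20, adjusted p = 0.97). With HMBA its ratios were 0.88 and 0.24 on day 2, 1.43 and 0.42 on day 4, and 1.42 and 0.45 on day 6. With RA they were 0.65 and 0.42, 1.32 and 0.77, and 0.91 and 0.19. All 12 of these arrays were above 0, whereas the DMSO arrays were above 0 in Cy3 and below 0 in Cy5 on all 3 days. The means of single days were called with the dye term only, at 0.54, 1.04 and 0.55 with RA (adjusted p = 0.0080, 1.5e-05 and 0.0039) and 0.56, 0.93 and 0.94 with HMBA (adjusted p = 0.0068, 3.6e-05 and 3.4e-05). Both calls over the days were lost without any 1 of the Cy3 arrays of their own treatment (highest adjusted p = 0.090 and 0.057). With the dye term DMSO was lower than RA by 0.69 ± 0.11 (adjusted p = 0.00017) and lower than HMBA by 0.79 ± 0.11 (adjusted p = 0.00013), and without it neither was called (0.22 and 0.30).

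Mdm2 did not follow Perp here. Its ratios were 1.08 and 0.52 on day 2 of HMBA, 0.41 and -0.06 on day 4, and 0.21 and -0.38 on day 6. The mean on day 2 of HMBA, 0.80 ± 0.22, was the highest of the 9 and was called with the dye term (adjusted p = 0.00032, against 0.064 without it). The lowest was DMSO on day 4, at -0.55, from arrays of -0.31 and -0.79, and RA on day 6 came to -0.40, both called lower with the dye term only (adjusted p = 0.0061 and 0.028). With HMBA day 6 was below day 2 by 0.89 ± 0.19, again with the dye term only (adjusted p = 0.0059). Over the days RA gave -0.08 ± 0.13 (adjusted p = 0.71), DMSO -0.25 ± 0.13 and HMBA 0.30 ± 0.13, the last pair called with the dye term only (adjusted p = 0.017 and 0.0043). HMBA exceeded RA by 0.38 ± 0.11 and DMSO by 0.55 ± 0.11 under the same fit (adjusted p = 0.025 and 0.0036) and not without it.

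Ccng1 rose with RA under the dye term only (0.29, adjusted p = 0.0065, against 0.15). It read -0.25 and -0.20 on day 2, 1.00 and 0.35 on day 4, and 0.55 and 0.27 on day 6, so both later days stood above 0 on each array. Days 4 and 6 (0.67 and 0.41, adjusted p = 0.0012 and 0.026) and the difference of day 6 from day 2 (0.63, adjusted p = 0.047) were called with the dye term only. DMSO went from 0.65 and -0.15 on day 2 to -0.36 and -0.67 on day 6. With the dye term only, Ccng1 was called lower with DMSO over the days (-0.21, adjusted p = 0.041), on day 6 (-0.52, adjusted p = 0.0082) and on day 6 against day 2 (-0.77, adjusted p = 0.018). With HMBA the means stayed between -0.21 and 0.00. RA exceeded DMSO by 0.50 and HMBA by 0.39, again called with the dye term only (adjusted p = 0.0034 and 0.026).

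Phlda3 rose with RA by 0.46 ± 0.11 (adjusted p = 0.0084), and all 6 arrays were above 0: 0.39 and 0.61, 0.32 and 0.76, and 0.25 and 0.44 on days 2, 4 and 6. Without the Cy5 array of day 4 the adjusted p was 0.053. Single days were called with the dye term only, at 0.50, 0.54 and 0.35 (adjusted p = 0.0090, 0.0040 and 0.041). DMSO and HMBA gave -0.19 ± 0.11 and -0.13 ± 0.11, not called. RA exceeded DMSO by 0.65 ± 0.16 (adjusted p = 0.028), a call lost in 8 of the fits that leave out 1 array (highest adjusted p = 0.089), and HMBA by 0.59 ± 0.16, called with the dye term only (adjusted p = 0.00073, against 0.071).

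Ddit4l separated RA from the other treatments on every array. With RA it read 0.88 and 0.85 on day 2, 0.16 and 0.61 on day 4, and 0.59 and 0.57 on day 6. With DMSO it read -0.56 and -0.43, -1.63 and -1.19, and -0.84 and -0.76, and with HMBA -1.02 and -0.52, -1.41 and -1.07, and -1.53 and -1.37. No RA array was below 0 and no DMSO or HMBA array above it. It rose with RA by 0.61 ± 0.10 (adjusted p = 0.00062) and fell with DMSO by 0.90 ± 0.10 (adjusted p = 4.7e-05) and with HMBA by 1.16 ± 0.10 (adjusted p = 3.8e-06). The means of DMSO on day 2 (-0.49, adjusted p = 0.018) and RA on day 4 (0.39, adjusted p = 0.029), and day 6 against day 2 of HMBA (-0.68, adjusted p = 0.022), were called with the dye term only. RA exceeded DMSO by 1.51 ± 0.14 (adjusted p = 3e-05) and HMBA by 1.77 ± 0.14 (adjusted p = 1.9e-05). DMSO and HMBA were not told apart, at 0.25 ± 0.14 (adjusted p = 0.77, and 0.15 with the dye term).

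Pmaip1 readings passed from above to below the untreated cells between days 2 and 6 in all 3 treatments. On day 2 it read 0.61 and 0.50 with RA, 1.21 and 1.16 with DMSO, and 1.64 and 0.90 with HMBA. On day 4 the readings were -0.26 and -1.15, -0.22 and -0.63, and 0.04 and -1.01, and on day 6 -0.78 and -1.49, -0.27 and -0.89, and -0.77 and -1.42. All 6 arrays of day 2 were thus above 0 and all 6 of day 6 below it. Day 6 against day 2 came to -1.69 ± 0.43 with RA, -1.76 ± 0.43 with DMSO and -2.36 ± 0.43 with HMBA. The last was called (adjusted p = 0.017), where 0.799% of all probes were called lower, and it was lost without the HMBA Cy3 array of day 2 or the Cy5 array of day 6 (highest adjusted p = 0.21). RA and DMSO were called with the dye term only (adjusted p = 6.5e-05 and 4.4e-05, against 0.11 and 0.090). The same fit alone called Pmaip1 higher on day 2 with RA (0.55, adjusted p = 0.014) and DMSO (1.18, adjusted p = 4.3e-05). It alone called Pmaip1 lower on day 4 with RA (-0.70, adjusted p = 0.0020) and HMBA (-0.48, adjusted p = 0.022) and on day 6 with DMSO (-0.58, adjusted p = 0.0076). Without the dye term, Pmaip1 was called lower on day 6 with RA and HMBA and higher on day 2 with HMBA. Each of these calls was lost without either array of its own treatment and day. Over the days RA gave -0.43 (adjusted p = 0.00061), below DMSO by 0.49 ± 0.13 (adjusted p = 0.0087), both with the dye term only.

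Bbc3, the other BH3-only gene, ran against Pmaip1 on day 2. Its ratios then were -0.68 and -1.05 with RA, -0.73 and -0.40 with DMSO, and -1.28 and -0.62 with HMBA, so all 6 arrays were below 0. These means of -0.86, -0.57 and -0.95 were called lower with the dye term only (adjusted p = 0.00055, 0.026 and 0.00025, against 0.069, 0.52 and 0.052). DMSO on day 4 was called higher with the dye term only (0.47, adjusted p = 0.034). By day 6 RA read 0.44 and 1.07 and HMBA -1.15 and -0.59. The RA mean of 0.75 on day 6 and its difference of 1.62 ± 0.22 from day 2 were called with the dye term only (adjusted p = 0.00096 and 0.00013, against 0.066 and 0.055). Over the days Bbc3 fell with HMBA by 0.70 ± 0.15 (adjusted p = 0.0033), with RA at 0.09 ± 0.15 and DMSO at -0.07 ± 0.15 not called. With the dye term HMBA was below RA by 0.79 ± 0.13 and below DMSO by 0.63 ± 0.13 (adjusted p = 0.00027 and 0.0038, against 0.062 and 0.24 without it).

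Trp53inp1 was called in no treatment without the dye term. Its means over the days were -0.33 ± 0.21, -0.21 ± 0.21 and -0.31 ± 0.21 with RA, DMSO and HMBA, and with the dye term the first and the last were called lower (adjusted p = 0.016 and 0.026). The lowest mean was RA on day 6, at -0.76, from arrays of -0.43 and -1.09, and with HMBA day 6 came to -0.68. Both were called lower with the dye term only (adjusted p = 0.0036 and 0.0084). The highest was DMSO on day 2, at 0.21, from arrays of 0.52 and -0.10, which lay on both sides of 0.

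Counted over all 90 combinations of gene, treatment and day, 15 were called, and 48 with the dye term, where 8.78% and 27.5% of all combinations with a probe were. Between treatments, RA exceeded DMSO in 3 of the 10 genes (Cdkn1a, Ddit4l and Phlda3), against 3.71% of all probes, and HMBA in 2 (Cdkn1a and Ddit4l), against 2.06%. DMSO against HMBA gave 0 calls of 10 in limma, with 3 at an unadjusted p under 0.05 and 3 called with the dye term, against 1.45% of all probes and 9.69% with the dye term.

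Other p53 targets did not move in 1 direction with the chemicals. Of 36 measured, 9 rose and 5 fell with RA, 5 rose and 8 fell with DMSO, and 6 rose and 10 fell with HMBA, with medians of -0.01, -0.05 and 0.00. Of all genes 17% rose and 10.6% fell with RA, 10.7% and 8.61% with DMSO, and 15.5% and 12.8% with HMBA. With RA, Plk2 (1.16 ± 0.11), Igfbp3 (1.23 ± 0.16) and Plk3 (0.69 ± 0.09) were higher, and Pml, a nuclear body protein, was lower (-1.13 ± 0.17). With HMBA, Gtse1 (-1.03 ± 0.09) and Psrc1 (-0.89 ± 0.10), both of the mitotic spindle, and the pluripotency factor gene Klf4 (-2.50 ± 0.32) were lower, while Thbs1 was higher (1.56 ± 0.19). Of 28 genes lowered through p21, 1 rose and 3 fell with RA, 1 rose and 1 fell with DMSO, and 1 rose and 5 fell with HMBA. The shares over all genes are those given above.

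The platforms can be set side by side by gene, without a test between them. Perp, Btg2, Cdkn1a and Phlda3 rose in both knockdowns and with RA, and Perp rose with HMBA as well (0.81). Pmaip1 and Trp53inp1 rose in both knockdowns and not with RA, where their means over the days were -0.43 and -0.33. Both means were called lower with the dye term only. Pmaip1 on day 6 of RA was called lower in limma without that term too (-1.14, adjusted p = 0.025). That call was lost when either array of RA on day 6 was left out. Ccng1 rose in both knockdowns and with RA under the dye term only. Bbc3, called in neither knockdown, fell with HMBA. Ddit4l rose after Nanog RNAi and with RA and fell with DMSO and HMBA, and after Pou5f1 RNAi its probe sets had opposite signs. Mdm2, which rose in both knockdowns, was called in no treatment mean without the dye term.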

How the data were processed

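RNAi levels were deposited as log2 values made by RMA, per the submitters' processing notes; RMA's version and any steps after it are not given in the sources used here. The 2-colour values were deposited as log ratios of sample over untreated reference, adjusted for the dye swap, per the labels; every array's median is 0, the base was taken as log2, and the background correction and within-array normalization are not given. The 64 control probe sets were left out. Gene names came from the platforms' annotation tables, where 34945 probe sets and 16345 ratio probes carry 1 symbol, 932 and 125 several, and 9160 and 4636 none.

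All 14 RNAi arrays were fitted together, and all 18 ratio arrays, in limma 3.58.1 (R 4.3.3; Python 3.11.15, pandas 2.3.3 and matplotlib 3.10.9 for tables and figures) by group means and eBayes, with 2-sided tests and Benjamini-Hochberg adjustment over 45037 probe sets or 16640 ratio probes (16587 with the dye term). The scripts were tested on simulated data. The number of arrays limits the precision. Replicate numbers were checked for pairing: a ratio array's number stands for its dye orientation, and same-numbered arrays deviated together in 36 of 36 pairs of groups (r = 0.51 to 0.92), so calls made with that block alone are printed beside the gene. On the RNAi arrays 5 of 13 same-numbered pairs had r over 0.1, and 10 of 52 pairs of other numbers did. This does not settle whether same-numbered arrays share a batch. The main fit left the number out, and the fit with it is given below.

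The members, the gene lists (up to 4 called genes of smallest p named per comparison, with family partners and genes named beside a member chosen after their values were seen) and the likeness rule (the 3 genes of highest r) were chosen with earlier results of these data known, and no list was tested as a set. Desmosome, paralogue, stress and marker lists share some genes. Alternatives were the replicate block, other normalizations, filters, a trended prior, fits of the compared arrays alone, averaged dye swaps and leaving out each array.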

Additional observations from a re-analysis of the deposited data

Results flagged for a closer look

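On the second Btg2 probe set, vector replicate 1 stood apart from its group at 7.01 (log2 level), with the other 4 vector arrays between 7.29 and 7.40. It was the only such array among 57 sets of 4 or 5 arrays of 1 group and probe set examined, where chance marks about 1 in 20. Pmaip1 with HMBA differed between day 6 and day 2 by -2.36, by limma's test of that difference, and is described with its arrays above.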

How the results depend on the processing

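With the replicate block, here the dye orientation of a ratio array, more calls were made among the 10 genes: 8 against 5 for RA, 4 against 1 for DMSO, 6 against 3 for HMBA, 48 against 15 over treatments and days, 12 against 1 for day 6 against day 2, and 17 against 5 for differences between treatments. Over all probes the same block gave 8196 against 4185 calls for RA, 6834 against 2834 for DMSO, 7964 against 4140 for HMBA, 41094 against 13152 over treatments and days, 5086 against 587 for day 6 against day 2, and 8127 against 1819 for differences between treatments. With swapped arrays averaged first, differences between treatments gave 3 calls (922 over all probes), and Btg2 with RA (adjusted p = 0.089) and Bbc3 with HMBA (adjusted p = 0.093) were not called. Scale normalization gave 2 calls for day 6 against day 2. Leaving out 1 array at a time gave 3 to 5 calls for RA (3 without replicate 1 of day 2, 4 or 6), 1 to 1 for DMSO, 2 to 3 for HMBA, 11 to 16 over treatments and days, 0 to 2 for day 6 against day 2 (0 without HMBA day 2 replicate 1 or day 6 replicate 2), and 4 to 5 for differences. On the RNAi arrays it gave 14 to 16 probe sets for Pou5f1 RNAi, 15 to 16 for Nanog RNAi and 10 to 11 between the knockdowns. With the replicate number as a block, whose pairing the labels do not state, these were 16, 16 and 11 (added: the Ddit4l probe set not called without it after Pou5f1 RNAi at 0.26, adjusted p = 0.015, and the other Cdkn1a probe set after Nanog RNAi at 0.56, adjusted p = 0.0026, and between knockdowns at 0.36, adjusted p = 0.040), and 16023, 8255 and 14291 over all probe sets against 14240, 7017 and 13282. No value of these genes that was called changed sign under any alternative run. The Mdm2 probe set at the bottom of the range left the tests when a mean level of at least 5 was required. With 2 arrays for each treatment and day, calls on single days rest on the spread pooled over all 18 arrays.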
